A study of Mus musculus with 12 samples.

Results

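The SR proteins are the serine- and arginine-rich family of splicing factors, and 10 of their genes were examined here: Srsf1, Srsf2, Srsf3, Srsf4, Srsf5, Srsf6, Srsf7, Srsf9, Srsf10 and Srsf11. They were chosen by symbol, with earlier results of these data known, and 10 of 10 were found among the 53392 mouse gene identifiers in the data. Polyadenylated RNA had been sequenced from tissue of the embryonic upper face in 12 libraries, 4 groups of 3, all from the 129S4 strain background. The wild-type group was Pdgfra+/+ palatal shelf at embryonic day E13.5, and the PI3K group was Pdgfra PI3K/PI3K palatal shelf of the same stage. Pdgfra encodes the receptor PDGFRα, and a receptor made from the PI3K allele, a knock-in, cannot bind the kinase PI3K. The control group was Srsf3 fl/fl;Wnt1-Cre+/+ maxillary process at E11.5, and the group labelled Srsf3 cKO (conditional knockout) was Srsf3 fl/fl;Wnt1-Cre+/Tg maxillary process of the same stage. All 6 maxillary libraries thus carried 2 floxed Srsf3 alleles, and the groups differed by the Cre transgene. Wnt1-Cre acts in the neural crest, so that ectoderm, endothelium and blood in the tissue keep Srsf3. Ectoderm was digested with trypsin before RNA was taken, and ectoderm markers were still found, mainly in palatal shelf (values below). The design text calls the 3 libraries of a group biological replicates, and whether one came from 1 embryo or from pooled embryos is not given in the sources used here. The study asks how Srsf3 acts in alternative splicing when PDGFRα signals.

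SR proteins bind exons through RNA recognition motifs and recruit the splicing machinery through a tail rich in serine and arginine. Kinases of the SRPK and CLK families phosphorylate that tail, transportins carry the phosphorylated proteins into the nucleus, and the kinase Akt, which acts below PI3K, can phosphorylate several of them. Most SR genes hold a cassette exon with a premature stop codon, often called a poison exon. When the protein is abundant it favours inclusion of this exon in its own transcript, and nonsense-mediated decay then degrades the product. In the facial mesenchyme, which derives from the neural crest, PDGFRα signalling through PI3K is needed for closure of the palate.

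Srsf3 (ENSMUSG00000071172.13; GRCm38, chr17:29032628-29043373, plus strand) and Srsf6 (ENSMUSG00000016921.14; chr2:162931528-162937121, plus strand) illustrate this arrangement in the GENCODE M21 annotation. The Srsf3 cassette, chr17:29039454-29039909, has 456 bases and belongs to an annotated decay transcript. It lies between an exon of 135 bases (chr17:29038490-29038624) and one of 39 bases (chr17:29040775-29040813) of the coding transcript. The sequences below are shown because total counts cannot separate the transcripts that they define. Each cassette is printed from its first base to the premature stop, which is in capitals, with the join made when it is skipped, in which the capitals mark the downstream exon and 30 bases are shown per side.
Srsf3 cassette, chr17:29039454-29039487: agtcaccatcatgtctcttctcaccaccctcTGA
Srsf3 cassette skipped, from chr17:29038595 to chr17:29040804: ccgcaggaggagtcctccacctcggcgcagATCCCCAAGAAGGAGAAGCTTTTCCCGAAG
Srsf6 cassette, chr2:162932815-162932966: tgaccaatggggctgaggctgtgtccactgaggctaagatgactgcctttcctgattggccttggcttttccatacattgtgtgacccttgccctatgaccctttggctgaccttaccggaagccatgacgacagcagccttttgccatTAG
Srsf6 cassette skipped, from chr2:162932113 to chr2:162933455: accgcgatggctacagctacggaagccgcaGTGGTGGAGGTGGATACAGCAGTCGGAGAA
The reading frame ran 31 bases into the Srsf3 cassette before its stop, and 149 bases into the Srsf6 cassette. The 2 forms of Srsf3 have nearly the same annotated length, 2594 bases with the cassette and 2618 without it, because the decay transcript ends earlier in the last exon. A mean transcript length can therefore not tell these 2 forms apart for Srsf3. For Srsf6 the decay transcript has 1666 bases and the main coding transcript 3527, so that their balance would move its mean length.

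Libraries held 30.5 to 37.4 M estimated counts (M, mega) in palatal shelf and 15.9 to 27.9 M in maxillary process. No cell type marker was at 0 in all libraries, and the 7 mesenchyme markers had a summed TPM (a level per transcript length, scaled to a common total) of 2063 to 2812 in controls and in palatal shelf, and of 1119 to 1990 under the label Srsf3 cKO. The 7 ectoderm markers summed to 268 to 636 TPM in palatal shelf and 1.31 to 11.1 TPM in maxillary process, and the 6 red blood cell markers to 1621 to 4763 TPM and 9409 to 27178 TPM. In bulk RNA, fewer cells of a type and less RNA per cell cannot be told apart.

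Srsf3 encodes the smallest of the classical SR proteins, and it is the gene targeted in the maxillary process. Its TPM was 382, 481 and 378 in wild-type palatal shelf, 369, 421 and 448 in PI3K palatal shelf, and 470, 407 and 416 in control maxillary process. The libraries labelled Srsf3 cKO had 320, 441 and 407 TPM. The 4 groups overlapped, and each neighbouring pair of group means was closer than the larger SD: 431 ± 34.4 in controls, 414 ± 58.4 in wild-type, 413 ± 40.1 in PI3K and 390 ± 62.3 in the group labelled Srsf3 cKO (TPM, SD, n = 3). In normalised read count (CPM, counts scaled to a common library total, not scaled for length) the controls had 621, 595 and 562 for Srsf3, which lay within the range of 478, 694 and 640 found under the label Srsf3 cKO. The log2 fold change was 0.03 (SE 0.14, 95% interval -0.29 to 0.35; edgeR quasi-likelihood test, adjusted p = 0.954). Total Srsf3 RNA therefore gave no check of these 3 labels, and they are called by their label throughout. Gene totals sum over all exons of Srsf3 and do not show whether the floxed exons were removed.

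**Figure D1:**
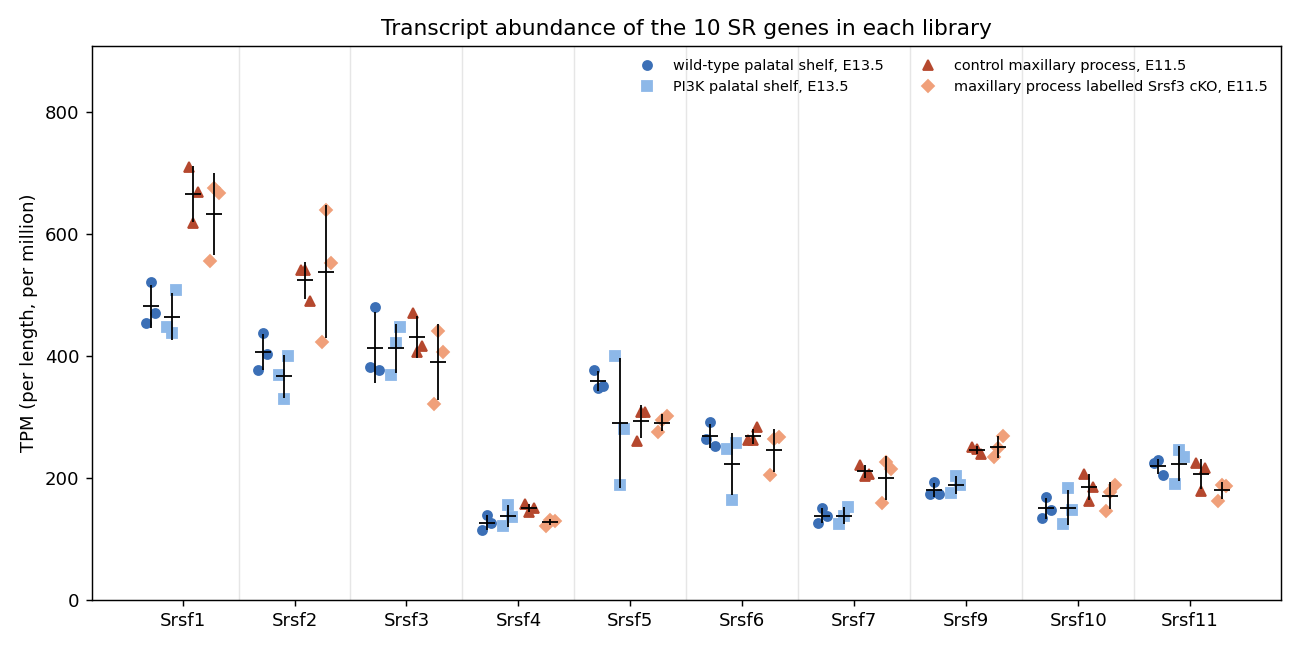
Transcript abundance of the 10 SR genes in TPM (vertical axis, per transcript length) in each of the 12 libraries, with 4 groups of 3 side by side for each gene; the short horizontal line is the group mean and the vertical line the SD. Srsf1 had the highest and Srsf4 the lowest mean in every group, with Srsf4 and Srsf7 within the SD of each other in palatal shelf, and the 4 groups of Srsf3 overlapped.

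Among the 10 members Srsf1, which promotes use of nearby splice sites and was among the first SR proteins described, had the highest mean in every group, with TPM of 482 ± 35.4 in wild-type palatal shelf, 465 ± 38.5 in PI3K, 666 ± 45.9 in control maxillary process and 633 ± 67.1 in the group labelled Srsf3 cKO (SD, n = 3). Under the label Srsf3 cKO its lead over Srsf2 was within the larger SD. Srsf4 had the lowest mean in every group, at 126 ± 12.4, 138 ± 17.5, 150 ± 6.78 and 127 ± 5.20 TPM in the same order. In palatal shelf it was not set apart from Srsf7, at 138 ± 12.6 TPM in wild-type and 138 ± 14.3 TPM in PI3K, gaps within the SD, and in PI3K library 2 Srsf7 was below Srsf4. The summed TPM of the 10 genes was 2623, 2958 and 2643 in wild-type palatal shelf, 2568, 2465 and 2753 in PI3K, and 3304, 3072 and 3162 in controls. Under the label Srsf3 cKO it was 2601, 3288 and 3184. The controls were above every palatal shelf library in this sum, and library 1 of the group labelled Srsf3 cKO lay within the palatal range.

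In palatal shelf, none of the 10 SR genes passed the test between PI3K and wild-type. The edgeR quasi-likelihood test called 0 of 10 members and 0 of 16525 genes (0.00%) at a false discovery rate of 0.05. At an unadjusted p under 0.05 it had 0 members and 354 genes (2.14%), and DESeq2 called 0 members and 5 genes. Read counts of the 2 groups overlapped for every member, whereas 6.29% of all genes had groups that did not overlap.

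Srsf3 itself had 326, 372 and 346 CPM in wild-type and 326, 321 and 356 CPM in PI3K palatal shelf. These values were interleaved, and the log2 fold change was -0.05 (SE 0.08, 95% interval -0.25 to 0.15; edgeR, adjusted p = 0.9997). The 2 largest differences belonged to Srsf5, at -0.33 (SE 0.24), and Srsf6, at -0.27 (SE 0.19), 2 genes of related structure. Srsf5 had 269, 259 and 256 CPM in wild-type and 286, 134 and 203 CPM in PI3K. Srsf6 had 328, 351 and 311 CPM in wild-type and 316, 193 and 309 CPM in PI3K. In both genes PI3K library 2 was the lowest of the 6, and another PI3K library reached the wild-type range or lay above it. Without that library the difference was -0.09 for Srsf5 and -0.07 for Srsf6. The log2 fold changes of the other 7 members ran from -0.17 for Srsf2, a classical SR protein that stays in the nucleus, to 0.15 for Srsf4. Pdgfra, the gene altered in this design, had a log2 fold change of 0.02 in read count (SE 0.10; edgeR, adjusted p = 0.9997) and 0.59 in log2(TPM + 1) (limma, adjusted p = 0.9999). Its TPM was 139.8, 130.3 and 145 in wild-type and 186, 200.5 and 243 in PI3K, groups that did not overlap, and its transcript length was called shorter in PI3K, by -0.58 on the log2 scale (limma, adjusted p = 0.00225).

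In maxillary process, no SR gene passed the test between the libraries labelled Srsf3 cKO and the controls either. The edgeR test called 0 of 10 members and 12 of 14254 genes (0.0842%), 4 of them lower in the group labelled Srsf3 cKO (0.0281%). At an unadjusted p under 0.05 there were 0 members and 1746 genes (12.2%), and DESeq2 called 0 members and 356 genes. The log2 fold changes of the members ran from -0.19 for Srsf4 to 0.08 for Srsf2 and Srsf9, with a median of -0.02 against 0.00 over all genes tested.

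Srsf4, one of the longer SR proteins, was the only member whose read counts did not overlap, which held for 18.2% of all genes. The controls had 203, 179 and 177 CPM, and the group labelled Srsf3 cKO had 155, 170 and 164 CPM. All 3 were below all 3 controls, and the difference of -0.19 (SE 0.08, 95% interval -0.39 to 0.01) had an edgeR adjusted p of 0.421. Srsf1, the member most abundant in this tissue, went from 666 to 908 CPM under the label Srsf3 cKO, a range that held the controls at 773 to 879 CPM. Its difference was -0.04 on the log2 scale (SE 0.12).

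Sums of cell type markers moved with the label in this comparison, and single markers did not all follow their sum. Of the mesenchyme markers, Prrx1, Twist1 and Alx1 separated the groups, and Pdgfra, Tfap2a, Col1a2 and Msx1 overlapped. Among the markers of neurons and glia only Foxd3 separated them. Every endothelial marker did. Of the macrophage markers C1qa overlapped, and Csf1r met at 3.6 TPM in the highest control and the lowest library labelled Srsf3 cKO. All 3 libraries labelled Srsf3 cKO were below all 3 controls in the sum of the 7 mesenchyme markers (1119, 1747 and 1990 TPM against 2063, 2404 and 2812 TPM) and in that of the 5 markers of neurons and glia (32.3 to 43.3 against 46.9 to 121 TPM). They were above all 3 controls in the sum of the 5 endothelial markers (332, 192 and 170 TPM against 130.03, 131 and 139 TPM) and in that of the 5 macrophage markers (17.0 to 27.7 against at most 15.9 TPM). The part of these shifts in the values of the SR genes was not tested.

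Library 1 of the group labelled Srsf3 cKO was the lowest of its 3 in 10 of 10 members by CPM. The same library stood farthest from the controls in the sums of mesenchyme, endothelial and macrophage markers, and had the highest sum of red blood cell markers, 27178 TPM beside 10136 and 15487 TPM. Its part in the results was not tested beyond leaving it out. Without it 9 of 10 members had a positive log2 fold change in place of 4, the value of Srsf3 was 0.17, the members called remained 0, and 29 genes were called in place of 12.

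**Figure D2:**
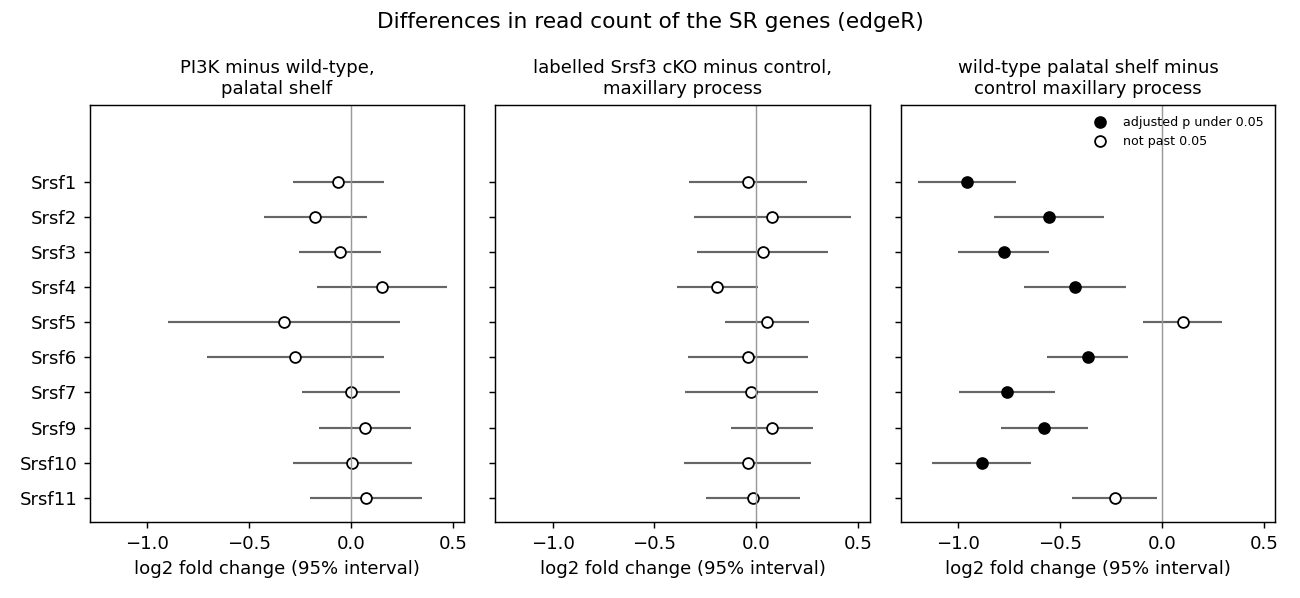
Log2 fold change of the normalised read count of each SR gene (horizontal axis, with the 95% interval as a line) in the 3 comparisons, each fitted with edgeR on 3 against 3 libraries; filled points passed an adjusted p of 0.05. No member passed in either genotype comparison, and 8 of 10 were lower in wild-type palatal shelf than in control maxillary process.

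Wild-type palatal shelf and control maxillary process differed in the read counts of most SR genes. These groups differ together in tissue, stage, sequencing lane and the floxed alleles, which cannot be told apart. Their values come from separate tables, and they share libraries with the genotype comparisons. The edgeR test called 8 of 10 members, 8 lower in palatal shelf and 0 higher, against 7965 of 15752 genes (50.6%), of which 3691 were lower (23.4%) and 4274 higher (27.1%). At an unadjusted p under 0.05 there were 9 members and 9005 genes (57.2%). The median log2 fold change was -0.57 for the members and 0.03 for all genes tested. The ectoderm markers were higher in palatal shelf, and the red blood cell markers were lower as a sum, with the sums given above. Single red blood cell markers did not all follow that sum. Hbb-bt was higher, at 412, 210 and 115 TPM in wild-type palatal shelf against 21.6, 58.8 and 104 TPM in controls, and Hba-a1 overlapped. The part of these markers in the difference of the SR genes was not tested.

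The largest difference was in Srsf1, which had 398, 458 and 420 CPM in wild-type palatal shelf and 879, 811 and 773 CPM in control maxillary process. It was 1.94-fold lower in palatal shelf, a log2 fold change of -0.96 (SE 0.10; edgeR, adjusted p = 0.000463). Srsf10, an unusual SR protein that represses splicing when it loses its phosphate groups, had 129, 163 and 151 CPM against 291, 264 and 259 CPM, a log2 fold change of -0.88 (SE 0.10; edgeR, adjusted p = 0.000626). Both genes were lower in every palatal library.

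Srsf3 had 326, 372 and 346 CPM in wild-type palatal shelf and 621, 595 and 562 CPM in control maxillary process. It was 1.71-fold lower in palatal shelf, with a log2 fold change of -0.78 (SE 0.10, 95% interval -0.998 to -0.55; edgeR, adjusted p = 0.000739). Srsf7, the member closest to Srsf3 in its RNA-binding domain, had 150.5, 181 and 162 CPM against 301, 273 and 258 CPM, a difference of -0.76 (SE 0.10; edgeR, adjusted p = 0.00101). The groups were well apart in these genes, which both also act as adaptors for mRNA export.

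Srsf9, a close relative of Srsf1, had 97.3, 109 and 94.65 CPM against 157, 152 and 137 CPM, with a log2 fold change of -0.58 (SE 0.09; edgeR, adjusted p = 0.00198). Smaller differences that passed were those of Srsf2 (-0.56, SE 0.12), Srsf4 (-0.43, SE 0.11) and Srsf6 (-0.36, SE 0.09). Without wild-type library 3, Srsf4 (edgeR, adjusted p = 0.0554) and Srsf6 (edgeR, adjusted p = 0.0598) no longer passed. Srsf5 and Srsf11 did not pass. Srsf11, a protein with a long serine- and arginine-rich tail, had 189, 192 and 193 CPM against 247, 215 and 209 CPM, a difference of -0.23 (SE 0.09; edgeR, adjusted p = 0.0633). It passed without control library 3 (edgeR, adjusted p = 0.0214). Srsf5 was the only member with a positive difference, 0.10 (SE 0.08; edgeR, adjusted p = 0.344), from 269, 259 and 256 CPM against 223, 250.1 and 255 CPM. Read counts of the 2 groups did not overlap in 10 of 10 members and in 62.0% of all genes.

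**Figure D3:**
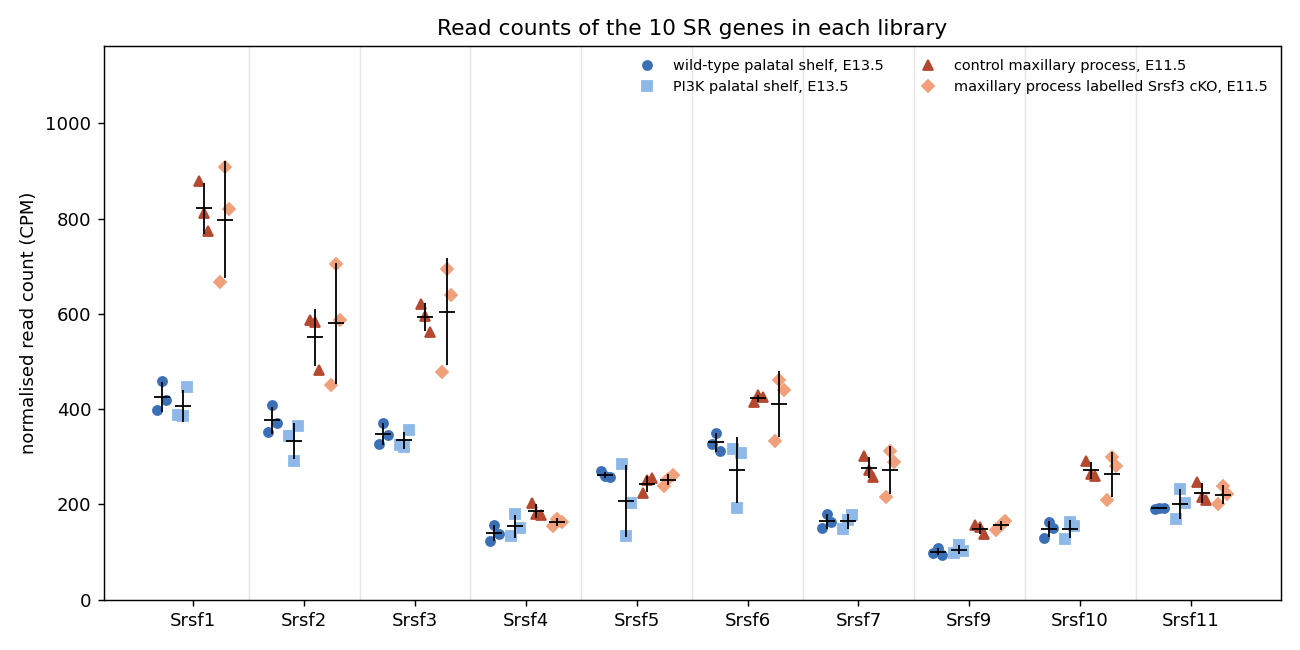
Normalised read count of the 10 SR genes in CPM (vertical axis) in each of the 12 libraries, 4 groups of 3 side by side for each gene; the horizontal line is the group mean and the vertical line the SD. Srsf1, Srsf2, Srsf3, Srsf7, Srsf9 and Srsf10 were lower in all 6 palatal libraries than in all 6 maxillary libraries.

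When all 6 palatal libraries were set against all 6 maxillary libraries, 6 members did not overlap in CPM (Srsf1, Srsf2, Srsf3, Srsf7, Srsf9 and Srsf10), each lower in palatal shelf. Among the 15752 genes tested, 40.2% did not overlap in this split and 18.3% were lower in palatal shelf without overlap. In TPM 3 members did not overlap (Srsf1, Srsf7 and Srsf9), each lower, against 35.7% of genes, with 10.2% lower.

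On the TPM scale fewer members passed between the same 2 groups. With limma on log2(TPM + 1), 4 of 10 members were called, all lower in palatal shelf: Srsf1 at -0.47 (adjusted p = 0.0141), Srsf2 at -0.37 (adjusted p = 0.0299), Srsf7 at -0.61 (adjusted p = 0.00555) and Srsf9 at -0.45 (adjusted p = 0.0109). Of all genes 42.8% were called on this scale, and 12.5% were called lower. It moved the median of all genes from 0.03 to 0.16, and the share of calls that were higher in palatal shelf from 53.7% to 70.9%. Srsf3 had -0.07 on it (limma, adjusted p = 0.716), which was 0.23 below the median gene, against 0.81 below the median gene in read counts. Srsf10 had -0.30 (limma, adjusted p = 0.123) and Srsf4 -0.25 (limma, adjusted p = 0.106). Srsf6 at 0.00 and Srsf11 at 0.09 changed sign, and Srsf5 reached 0.30 (limma, adjusted p = 0.0678). So 4 SR genes were called lower on both scales. For Srsf3, Srsf4, Srsf6 and Srsf10 the call differed between edgeR on read counts and limma on TPM.

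**Figure D4:**
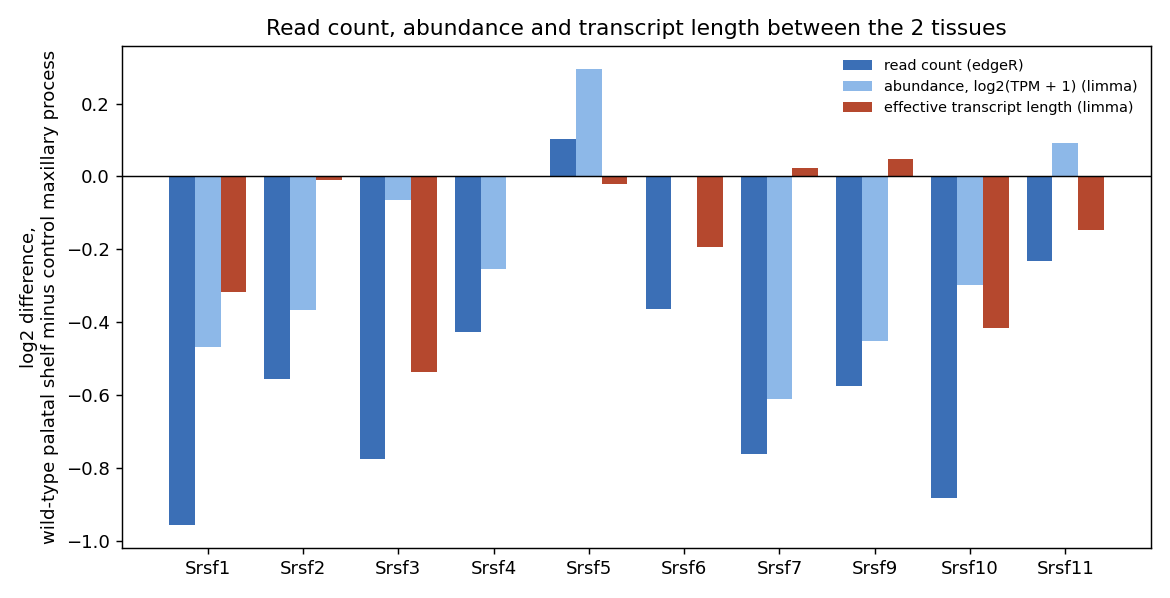
Log2 difference between wild-type palatal shelf and control maxillary process (vertical axis; below 0 is lower or shorter in palatal shelf) for each SR gene, as bars for read count, for abundance in log2(TPM + 1) and for effective transcript length. Srsf3 had -0.78 in read count, -0.07 in abundance and -0.54 in length, while Srsf7 had -0.76, -0.61 and 0.02.

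The 2 scales differ by the length of transcript to which reads were assigned, and also by library scaling and test. Read counts were scaled between libraries and tested with edgeR, while TPM were tested with limma and not scaled further. Srsf4 lost its call on the TPM scale with a length shift of -0.0024 on the log2 scale. The estimated count divided by the TPM gives the mean effective length of a gene's transcripts, up to a constant of the library. It moves with the mix of long and short transcripts. Effective length also depends on the fragment lengths of a library, more so in short transcripts, and that part was not tested. It was expressed in bases with 388 genes that have 1 annotated transcript of at least 3000 bases. These came out between 0.99 and 1.011 times their annotated length in the middle 50% of genes. Shorter transcripts were not calibrated, and their values in bases can fall below the annotated length. For Srsf3 it was 1559, 1411 and 1694 bases in wild-type palatal shelf, 1613, 1372 and 1492 in PI3K, and 2117, 2367 and 2346 in controls. The group labelled Srsf3 cKO had 2391, 2480 and 2545 bases. Every palatal library was shorter than every maxillary library. All 12 values were below the 2618 bases annotated for the single coding transcript. That length is outside the calibration, so no shortfall is read from this. The other 9 annotated transcripts of Srsf3 have 319 to 4010 bases, and 4 of them retain an intron.

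Between wild-type palatal shelf and control maxillary process the length of Srsf3 differed by -0.54 on the log2 scale (SE 0.08, 95% interval -0.75 to -0.33; limma, adjusted p = 0.0369). Its size exceeded that of 99.4% of the 11093 genes tested. The test called 4 of 10 members, 4 shorter and 0 longer in palatal shelf, against 1008 genes (9.09%), of which 258 were shorter (2.33%) and 750 longer (6.76%). At an unadjusted p under 0.05 there were 6 members and 3304 genes (29.8%), and the 2 groups did not overlap in length in 6 members and 44.6% of genes. Beside Srsf3, the members called were Srsf10 at -0.42 (SE 0.06; limma, adjusted p = 0.0351), Srsf1 at -0.32 (SE 0.03; limma, adjusted p = 0.0216) and Srsf6 at -0.19 (SE 0.02; limma, adjusted p = 0.0268).

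Srsf1 ranged from 1582 to 1651 bases in the 6 palatal libraries and from 1920 to 2121 bases in the 6 maxillary libraries. Its annotated coding transcripts have 1209, 2948 and 5362 bases. Srsf6 ranged from 2113 to 2333 and from 2547 to 2747 bases, between its decay transcript and its main coding transcript in both tissues. Srsf10 ranged from 1609 to 1972 and from 2269 to 2657 bases, and its 4 annotated coding transcripts run from 2225 to 3754 bases. None of these 3 genes overlapped between the tissues. Over the 6 palatal and 6 maxillary libraries 7 members did not overlap in length, 5 of them shorter in palatal shelf, against 19.8% of 10924 genes, with 3.30% shorter. Among the shorter members Srsf2 differed by little, at 1586 to 1706 against 1709 to 1740 bases. The 2 longer members, Srsf7 and Srsf9, also differed by little, with Srsf9 at 1013 to 1028 against 995 to 1002 bases. Whether fragment length had a part in this was not tested. The members not called shifted by -0.15 (Srsf11) to 0.05 (Srsf9). Srsf7 lay between 2173 and 2193 bases in all 12 libraries.

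These length calls depended on 5 of the 6 libraries. Without wild-type library 1 or 2, or control library 1, 2 or 3, 0 of the 4 members passed, and the genes called numbered 23, 21, 56, 0 and 71. Without wild-type library 3 the 4 members passed and 587 genes were called. The shift of Srsf3 kept its size, between -0.60 and -0.47, while its adjusted p ranged from 0.0404 to 0.124 (limma). In 1 fit on all 12 libraries, a setting chosen after seeing the data, 5 members passed, the same 4 and Srsf9 (longer in palatal shelf), with 1760 genes called.

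**Figure D5:**
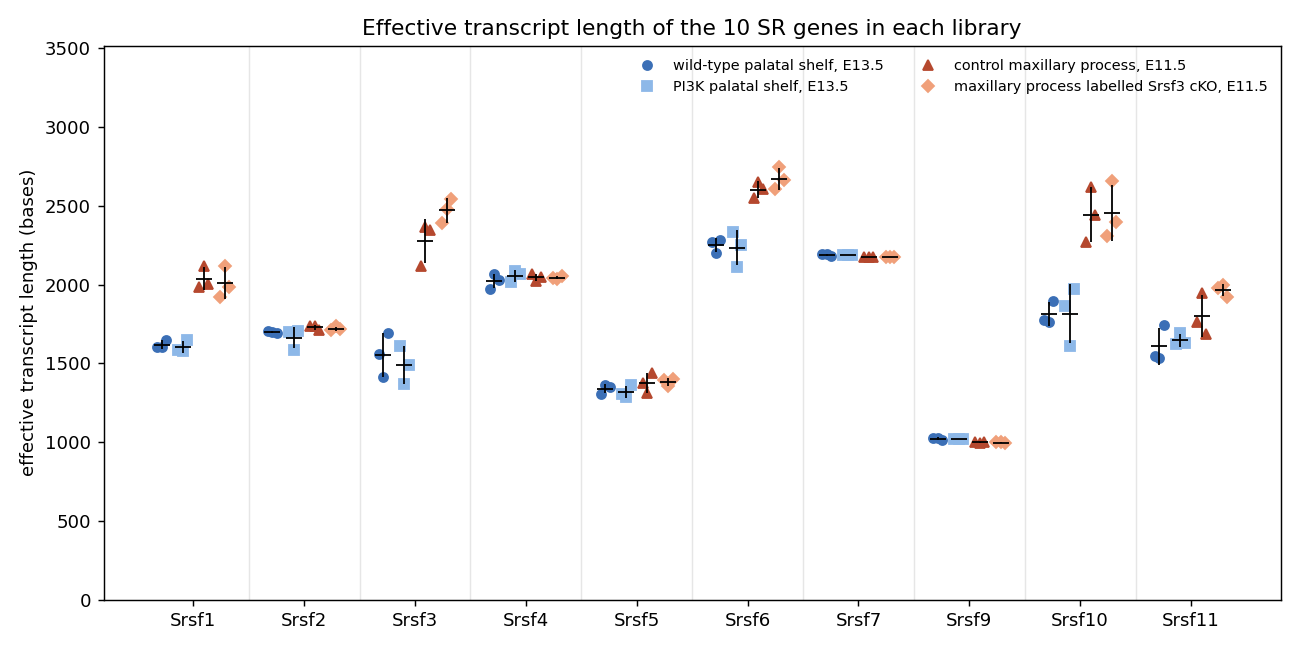
Effective transcript length in bases (vertical axis, estimated count over TPM after calibration) of each SR gene in each of the 12 libraries, 4 groups of 3 side by side; the horizontal line is the group mean and the vertical line the SD. Srsf3, Srsf1, Srsf6 and Srsf10, and by little Srsf2, were shorter in all 6 palatal libraries than in all 6 maxillary libraries. Srsf7 stayed between 2173 and 2193 bases.

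Neither genotype moved the length of an SR gene past the threshold. In palatal shelf the limma test called 0 of 10 members and 1 of 12907 genes (0.00775%), which was Pdgfra, shorter in PI3K, and the shifts of the members ran from -0.05, the value of Srsf3, to 0.04. At an unadjusted p under 0.05 there were 0 members and 503 genes (3.90%), and the groups did not overlap in 0 members and 6.36% of genes. In maxillary process it called 0 of 10 members and 1 of 11002 genes (0.00909%), with 0 members and 568 genes (5.16%) at an unadjusted p under 0.05. There Srsf3 was longer in all 3 libraries labelled Srsf3 cKO than in all 3 controls, a separation shown by 11.8% of genes. Its shift was 0.13 (SE 0.05, 95% interval -0.00 to 0.26; limma, unadjusted p = 0.056, adjusted p = 0.859). The members' shifts in that comparison ran from -0.01 for Srsf1 to 0.14 for Srsf11, which was larger than that of Srsf3. The groups overlapped for Srsf11 (SE 0.06; limma, unadjusted p = 0.064).

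Promoters are shown for Srsf1 and Srsf3, which were lower in palatal shelf by read count, and for Srsf5, which was not. Each runs from 250 bases before to 50 bases after an annotated start (RefSeq, GRCm38.p6). Capitals mark matches on either strand. The TATA box was searched as TATAAA, and the binding site of the factor NF-Y as CCAAT. The GC box of Sp-family factors was searched as GGGCGG, and a motif of CREB-family factors was given by TGACG. The E box was searched as CACGTG; adjoining or overlapping matches appear as 1 run.
Srsf1, chr11:88047123-88047422, plus strand: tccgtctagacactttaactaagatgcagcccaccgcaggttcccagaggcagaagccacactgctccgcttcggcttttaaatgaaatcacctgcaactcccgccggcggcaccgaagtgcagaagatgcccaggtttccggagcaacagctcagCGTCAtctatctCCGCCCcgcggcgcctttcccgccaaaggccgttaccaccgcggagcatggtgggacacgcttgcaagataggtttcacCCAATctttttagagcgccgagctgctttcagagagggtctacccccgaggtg
Srsf3, chr17:29032410-29032709, plus strand: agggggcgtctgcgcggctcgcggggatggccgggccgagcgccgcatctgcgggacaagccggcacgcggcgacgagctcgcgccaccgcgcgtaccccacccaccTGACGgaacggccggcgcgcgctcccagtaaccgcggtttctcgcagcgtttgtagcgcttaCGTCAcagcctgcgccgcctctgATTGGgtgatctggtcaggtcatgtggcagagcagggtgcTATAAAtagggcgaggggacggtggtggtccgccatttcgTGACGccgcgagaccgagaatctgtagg
Srsf5, chr12:80945249-80945548, plus strand: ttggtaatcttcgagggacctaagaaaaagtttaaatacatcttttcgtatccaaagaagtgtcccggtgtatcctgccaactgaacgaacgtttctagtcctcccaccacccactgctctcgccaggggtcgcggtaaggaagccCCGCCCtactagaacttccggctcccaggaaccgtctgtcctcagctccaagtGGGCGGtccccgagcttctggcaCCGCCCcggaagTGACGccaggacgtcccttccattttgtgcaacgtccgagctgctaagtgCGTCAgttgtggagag
The table held 13 promoter windows for the 10 members, some of them overlapping windows of the same gene. GGGCGG was in 12 of these 13 and in 35.7% of all 32851 windows of this length, and the Srsf3 window was the one without it. TGACG was in 7 of 13 and in 20.8% of all windows, CCAAT in 4 of 13 and 37.4%, TATAAA in 2 of 13 and 13.6%, and CACGTG in 0 of 13 and 7.15%. The Srsf3 window held TGACG at 3 places. These matches are letters in a window and were not tested for binding.

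Genes that act on or with SR proteins were taken from 3 lists. Of kinases and import factors of SR proteins, 13 of 14 were tested between wild-type palatal shelf and control maxillary process. Lower in palatal shelf were 6 of them (Srpk1, Clk3, Dyrk1a, Prpf4b, Tnpo3 and Tnpo1) and 0 were higher, with a median log2 fold change of -0.27. The share of all genes in this comparison was 23.4% lower, 27.1% higher and 50.6% called in all, so the called share of this list, 6 of 13, was near that of all genes. Tnpo1 and Tnpo3 encode transportins, and Tnpo3 is the importer of phosphorylated SR proteins. Tnpo1 had -0.84 (SE 0.11; edgeR, adjusted p = 0.000867) and Tnpo3 -0.53 (SE 0.10; edgeR, adjusted p = 0.00359).

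Of 19 SR-related and splice site proteins, 14 were lower in palatal shelf and 1 was higher (23.4% and 27.1% of all genes), with a median of -0.37. The lower genes were Tra2a, Tra2b, Pnn, Acin1, Rnps1, Srek1, Rsrc2, Luc7l, Luc7l2, Luc7l3, Snrnp70, U2af1, U2af2 and Sf3b1. Tra2b, a partner of SR proteins on exon enhancers, had -0.80 (SE 0.11; edgeR, adjusted p = 0.00129). Srsf12, an SR-like repressor of splicing that was outside the 10 members, was higher in palatal shelf by 1.49 (SE 0.22; edgeR, adjusted p = 0.00153).

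Of 16 factors of nonsense-mediated decay and export, 12 were lower and 0 higher in palatal shelf (23.4% and 27.1% of all genes), with a median of -0.32. They were Upf1, Upf2, Upf3b, Smg5, Smg6, Smg8, Eif4a3, Rbm8a, Magoh, Casc3, Nxf1 and Nxt1. Nxt1, a cofactor of the export receptor, had -0.71 (SE 0.15; edgeR, adjusted p = 0.00662), and Rbm8a, a core protein of the exon junction complex, -0.63 (SE 0.14; edgeR, adjusted p = 0.00853). With limma on log2(TPM + 1) the lower calls were 3, 5 and 2 in these 3 lists and the higher calls 3, 1 and 0. The lists were named with results of these data known, and their counts are a description. Without wild-type library 3 the lower calls in the decay and export list were 5, without wild-type library 1 they were 6, and without control library 2 they were 7. In the SR-related list they were 9 without wild-type library 3.

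Pdgfra was higher in wild-type palatal shelf than in control maxillary process by 0.40 (SE 0.11; edgeR, adjusted p = 0.0188), a call that was lost without wild-type library 3, control library 1 or control library 2.

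None of these 3 lists had a call in either genotype comparison. The smallest unadjusted p in palatal shelf belonged to Srpk3, a kinase of muscle, at a log2 fold change of 1.64 (SE 0.66, edgeR adjusted p = 0.9997). Its read count was low, at 0.26 CPM (SD 0.19) in wild-type and 0.81 CPM (SD 0.49) in PI3K. The 5 skeletal muscle markers summed to 4.16 to 55.9 TPM in wild-type and 37.2 to 225 TPM in PI3K. The dependence of Srpk3 on those markers was not tested. In maxillary process the smallest belonged to Tnpo1, at 0.32 (SE 0.10; edgeR, adjusted p = 0.327), ahead of Upf3b at -0.30 and Srpk2 at -0.23.

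Likeness to Srsf3 was measured as Pearson's r of log2 CPM over the 12 libraries, as a description over 11430 genes with a mean of at least 5 CPM. The 12 libraries form 2 blocks by tissue, so the value within each tissue is given for the 5 genes most alike. Srsf1, second of all genes, had r of 0.99 over 6 palatal and 0.96 over 6 maxillary libraries. The others were Sae1 (0.92 and 0.96), a subunit of the SUMO-activating enzyme, the deacetylase gene Sirt1 (0.89 and 0.95), Abcf1 (0.91 and 0.96) and Sars2 (0.81 and 0.96), the mitochondrial seryl-tRNA synthetase gene. Of the other members, Srsf7 had 0.78 and 0.98, Srsf2 0.83 and 0.94, and Srsf10 0.54 and 0.97. Srsf6 had 0.55 and 0.92, Srsf4 0.16 and 0.39, Srsf9 0.06 and 0.66, and Srsf11 -0.07 and 0.81. Srsf5 was last of the members over the 12 libraries and had 0.26 and 0.24, above Srsf4, Srsf9 and Srsf11 in palatal shelf. By deviations from the group means Srsf2 (0.92) was more like Srsf3 than Srsf10 (0.83), while over the 12 libraries Srsf10 ranked 178 and Srsf2 423. Sample depth and the low library 1 of the group labelled Srsf3 cKO are shared by all of these genes.

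Reads of some members could be assigned to near-identical copies. Of the 31-base words in its annotated transcripts, Srsf3 shared 13.8% with other genes, mainly Gm12355 (10.0%, with at most 130 estimated counts in a library) and the pseudogene Gm9761. Srsf5 shared 14.1%, nearly all of it with the pseudogene Gm12966, and Srsf10 shared 10.8%, mainly with Gm5446. The pseudogenes Gm12966 and Gm5446 each had at most 3.9 estimated counts in any library. Srsf2 lies within Mettl23 on the opposite strand over its whole 3194 bases, and whether the authors' counting used strand is not given in the sources used here. Mettl23 had 107 to 347 estimated counts per library.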

How the data were processed

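Polyadenylated RNA of 12 libraries had been sequenced, and the authors deposited, for each tissue, 1 table of estimated counts and 1 of TPM, both per gene. The tissue comparison joins these separate tables. Salmon 1.1.0, STAR 2.7.0, DESeq2 1.28.1 and the mm10 build are named per the submitters' processing notes, which give them no roles, and the annotation is not given in the sources used here. Identifiers were matched to GENCODE M21 on GRCm38 (53355 of 53392).

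Estimated counts were rounded, and edgeR 4.0.16 (R 4.3.3) was run on them (quasi-likelihood test, TMM scaling, filterByExpr) on the 6 libraries of each comparison, with Benjamini-Hochberg adjustment over all genes tested and a threshold of 0.05. CPM were scaled with TMM over the 12 libraries. Length was log2 of count over TPM, centred on each library's median gene and tested with limma 3.58.1 in genes with at least 50 counts in all 6 libraries. DESeq2 1.42.0 and limma on log2(TPM + 1) and log2(TPM + 0.1) were alternatives. Deeper libraries give smaller counting error, and the p-values measure the spread between 3 libraries a group.

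All 10 members are named, and from each pathway list the genes past the threshold or, with none, up to 3 with the smallest unadjusted p; values are given for the 2 largest changes. The members and lists were chosen with earlier results of these data known. On simulated counts with 200 changed genes, edgeR recovered 58.5%, 59% and 63.5% of them in the PI3K, the cKO and the tissue comparison. These held 16525, 14254 and 15752 genes, and of 1.5-fold changes edgeR recovered 16%, 12% and 26%. In the same order, 11 of 128, 12 of 130 and 7 of 134 edgeR calls were false. For DESeq2 it was 66 of 212, 54 of 192 and 49 of 198 calls. With no gene changed, DESeq2 called 9, 18 and 18 genes, and edgeR 1, 0 and 0.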

Additional observations from a re-analysis of the deposited data

How the results depend on the processing

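None of the alternatives run gave an SR gene a call in read count in either genotype comparison. Genes called between PI3K and wild-type were 0, and 5 with DESeq2. In the maxillary process 12 genes were called, against 143 with no filter on low counts, 356 with DESeq2, 7 with limma on log2(TPM + 1), 126 in 1 fit on all 12 libraries (chosen after seeing the data) and 2 to 29 with each library left out. SR genes called between the tissues were 8, against 4 with limma on log2(TPM + 1) or log2(TPM + 0.1). Length calls were 1 in PI3K (0 to 1 with each library left out), 1 in maxillary process (3 with a minimum of 10 counts, 3 in the fit on 12 libraries, 0 to 5 with each library left out), and 1008 between tissues (1760 in the fit on 12 libraries, 0 to 587 with each library left out), with 4 SR genes (0 to 4). With a replicate block the genes called in maxillary process were 40, length calls were 0 in all 3 comparisons, with 0 SR genes, and the SR genes called between tissues were 8; libraries with the same number were not paired, since their deviations from the group means correlated at 0.54, 0.22 and -0.22 in palatal shelf, 0.08, 0.11 and 0.23 in maxillary process, and -0.14, 0.03 and -0.02 between tissues, so in no comparison was every pair above 0.1. The cause of these changes was not tested.

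Some signs turned, among them that of Srsf6 between tissues, a called value of -0.36, and that of Srsf11, at -0.23. Srsf7 in PI3K had -0.003322 with no filter, -0.00193 with more than 1 CPM, -0.001436 and -0.001454 on the 2 TPM scales and -0.002463 in the fit on 12 libraries. On the 2 TPM scales, Srsf3 had 0.001821 and 0.001834 in PI3K and -0.1557 and -0.156 in the cKO comparison, Srsf5 had -0.00708 and -0.007091 there, and between tissues Srsf6 had 0.0001149 and 0.0001098 and Srsf11 0.09172 and 0.09214. In the fit on 12 libraries Srsf6 lost its call between tissues (edgeR, adjusted p = 0.113), and with DESeq2 Srsf11 gained one (adjusted p = 0.0387).

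With each library left out of the PI3K comparison, the log2 fold change ran from -0.1221 to 0.0009235 for Srsf1, -0.08921 to 0.002438 for Srsf3, -0.04413 to 0.0859 for Srsf7, -0.00238 to 0.1389 for Srsf9, -0.06727 to 0.1236 for Srsf10, -0.0375 to 0.1999 for Srsf11 and -0.06543 to 0.09907 for Pdgfra, and the length shift of Srsf3 from -0.1181 to 0.0114. In the cKO comparison it ran from -0.1345 to 0.07256 for Srsf1, -0.07622 to 0.2285 for Srsf2, -0.07377 to 0.1703 for Srsf3, -0.0007822 to 0.09944 for Srsf5, -0.1213 to 0.08847 for Srsf6, -0.1283 to 0.1139 for Srsf7, -0.1354 to 0.09323 for Srsf10, -0.07117 to 0.06078 for Srsf11 and -0.3237 to 0.108 for Pdgfra. Between tissues the length shift ran from -0.02076 to 0.01857 for Srsf4 and -0.05825 to 0.01379 for Srsf5.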
